A study of Mus musculus with 9 samples.

Results

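Bacterial lipopolysaccharide (LPS) is sensed through Toll-like receptor 4 (TLR4), and 33 genes that carry its signal from the co-receptors to the kinases were followed here by name in the deposited table. They are co-receptors, adaptors, IRAK kinases, TRAF ligases, the TAK1 and IKK complexes, TBK1 and IKK-epsilon, the MAP kinase cascades and 2 inhibitors. The table held all 33 among 26146 genes, and 32 of them were among the 11536 genes tested. Of the 33 members, 28 carried the KEGG term for Toll-like receptor signalling in the deposited table, and Irak2, Irak3, Tab3, Mapkapk2 and Sigirr did not.

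RAW264.7, a mouse macrophage line transformed by Abelson leukaemia virus, was the source of the poly(A) RNA sequenced in 9 libraries. All 9 come from this 1 line, and the labels name no genetic change in any group. There were 3 M libraries, 3 ET libraries and 3 Normal libraries of untreated cells. The labels describe one treated group as given LPS and the other as given LPS with an extract from Traditional Chinese Medicine, and state no plant, dose or time. They conflict on which is which. By the table columns named in the labels, M is LPS with extract and ET is LPS alone. By the library names in the same labels the assignment is the opposite, with LPS alone for M and LPS plus extract for ET. The comparison of all treated libraries with Normal is the same under both readings, whereas the meaning of a difference between M and ET turns round. The labels do not say that libraries of a group came from separate cultures, so p-values measure only the spread between these libraries, which may be technical.

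LPS is handed by LBP and CD14 to MD-2, the protein that binds it in complex with TLR4. The receptor then signals on 2 branches. From the cell surface, TIRAP and MyD88 assemble the IRAK kinases, which engage TRAF6, the kinase TAK1 and, beyond it, the IKK complex and the MAP kinases. From endosomes, TRAM and TRIF engage TRAF3 and the kinases TBK1 and IKK-epsilon, which act on interferon regulatory factors. In macrophages several of these proteins are themselves made or withdrawn after LPS, IRAK-M being a known brake.

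Total counts were 57796361 to 60881764 in the M libraries, 55039858 to 62962615 in the ET libraries and 56921531 to 76242718 in the Normal libraries. The first principal component of all tested genes held 90.5% of the variance and separated treated from Normal libraries. The second held 2.28%, placing the M libraries at 11.49 to 13.75 and the ET libraries at -14.71, -17.05 and, for replicate 3, -7.22. ET replicate 3 thus lay nearest to M. For members called between M and ET the difference is given below with and without it, and other differences rest on all libraries. The LPS-induced gene Nos2 had mean levels of 67.7 and 66.05 FPKM (fragments scaled to gene length and library size) in the M and ET libraries, and 0 counts in all 3 Normal libraries. Il6, Tnf and Il1b were also higher in treated libraries. Nos2 was not called between M and ET (adjusted p = 0.542 in edgeR's test). Il1b and Il6 were higher in M by 0.84 and 0.77 on the log2 scale (adjusted p = 1.94e-06 and 0.000598 in edgeR's test). Tnf was lower in M, with a log2 change of -0.36 (adjusted p = 0.00323 in edgeR's test). Of 7 macrophage markers, all detected in every library, Adgre1, Itgam and Cd68 were higher in treated libraries, Csf1r, Lyz2 and Spi1 were lower, and Fcgr1 was not called. Their summed FPKM was 1430 to 1450 in M, 1580 to 1680 in ET and 1820 to 1940 in Normal. T cell markers summed to at most 0.052 FPKM in any library. Among markers of other cells, S100a8, Lum, Pecam1 and Hba-a1 were higher in treated libraries, and Ighm was lower; S100a9, Elane, Mpo and Col1a1 were at or near 0. Granulocyte markers summed to 41.4 to 47.5 FPKM in M, 37.8 to 46.9 in ET and 0 to 0.129 in Normal, and S100a8 made up nearly all of it in treated libraries. Fibroblast markers summed to 4.12 to 6.12 FPKM in M, 3.05 to 3.57 in ET and 0.0234 to 0.0273 in Normal, where Lum, the main one in treated libraries, had 0. Ighm, a B cell marker, had 28.86 to 30.12 FPKM in M, 24.09 to 25.73 in ET and 229 to 245.7 in Normal. Endothelial markers summed to 3.20 to 3.55 FPKM in M, 2.76 to 3.26 in ET and 0.768 to 0.953 in Normal, and erythroid and platelet markers to 0.969 to 1.66 in M, 1.19 to 1.38 in ET and 0.0565 to 0.407 in Normal. Epcam, the 1 epithelial marker in the table, reached at most 0.0229 FPKM. The part of these markers in the results below was not tested. In bulk RNA, a change in the share of cells and a change in RNA per cell cannot be told apart.

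At least 1 gene was called between treated and Normal cells at every step of the pathway, but not in 1 direction. Of the 32 members tested, 18 were higher in treated libraries, where 36.8% of all tested genes were called higher, and 9 were lower, where 36.8% of all tested genes were called lower. The other 5, namely Traf6, Tab3, Ikbkg, Mapk8 and Mapk9, were not called. Called means an adjusted p under 0.05 in edgeR's quasi-likelihood test, adjusted by Benjamini-Hochberg over the 11536 genes. Changes of at least 2-fold stood on the higher side for 8 members, namely Ly96, Cd14, Ticam1, Irak2, Irak3, Ikbke, Map3k8 and Map2k1, beside 10.6% of all tested genes. They stood on the lower side for 3 members, namely Ticam2, Irak1 and Tab1, beside 5.07% of all tested genes. Over the 32 members the median log2 change was 0.17 and the median size of change 0.45, against -0.01 and 0.36 over all tested genes. Under 1.5-fold lay 19 of the 32.

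**Figure D1:**
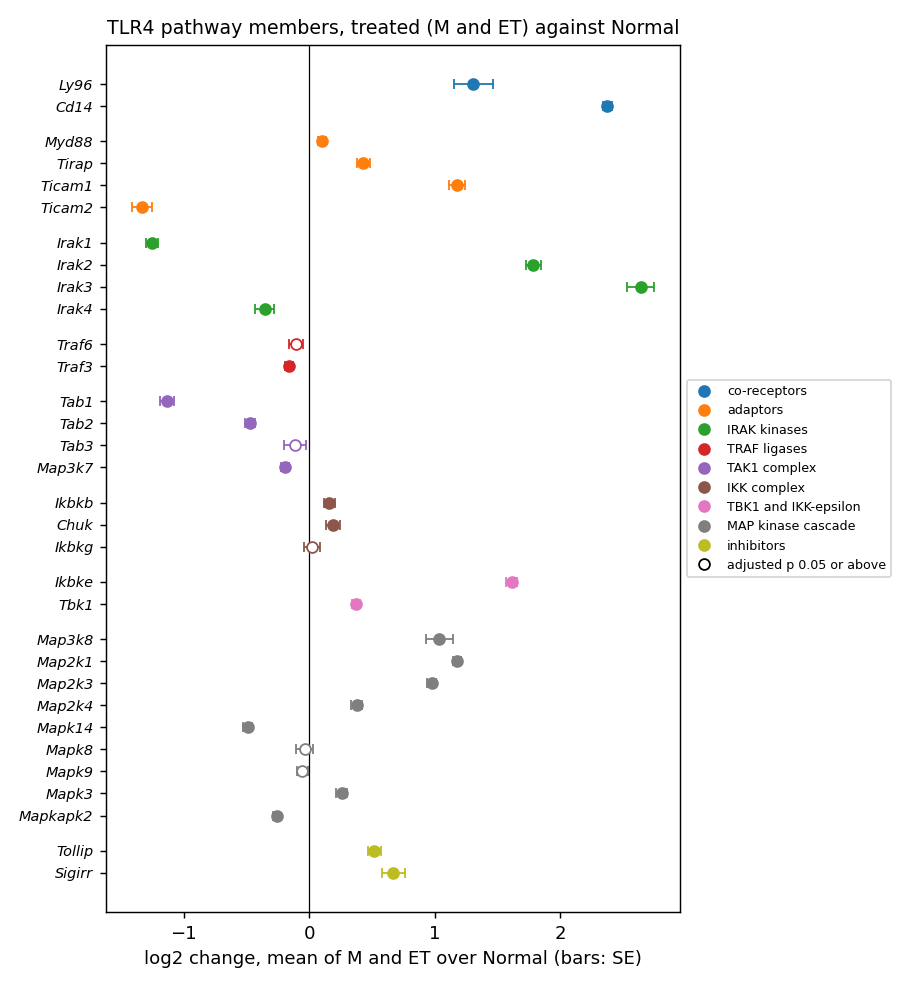
Log2 change of each tested member (x axis), the mean of M and ET over Normal, with bars of 1 SE from the edgeR fit, grouped and coloured by step of the pathway; open circles mark members with adjusted p of 0.05 or above. Irak3 and Cd14 lie farthest to the right (2.64 and 2.37), and Ticam2, Irak1 and Tab1 farthest to the left (-1.331, -1.252 and -1.13).

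M and ET gave similar counts when each was set against the same Normal libraries. In M, 18 members were higher (35.5% of all tested genes) and 9 lower (34.5% of all tested genes). In ET, 16 were higher (35.0% of all tested genes) and 10 lower (35.2% of all tested genes). Traf6 was called lower in ET, with a log2 change of -0.15 (adjusted p = 0.0398 in edgeR's test), against -0.05 in M (adjusted p = 0.448). The Traf6 call in ET was lost in 8 of 18 alternative settings. Myd88 was called in M at 0.17 and not in ET at 0.03, and Chuk in M at 0.26 and not in ET at 0.12. These pairs of comparisons share the Normal libraries.

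The co-receptors were among the members with the largest changes. Cd14, whose product carries LPS to the receptor complex, had 1030, 1017 and 980.1 FPKM in the M libraries and 969.6, 997.2 and 910 FPKM in the ET libraries, against 195.2, 201.6 and 205.6 FPKM in the Normal libraries. Every treated library lay above every Normal one, and M and ET overlapped. The change was 5.18-fold (log2 2.37, SE 0.04, adjusted p = 2.19e-14 in edgeR's test). Cd14 was the member with the highest mean FPKM in M and ET, and came after Mapkapk2 in Normal. Ly96, which encodes MD-2, had 7.786, 7.005 and 6.364 FPKM in M and 7.111, 6.985 and 7.98 FPKM in ET, against 3.934, 2.698 and 2.593 FPKM in Normal. All treated libraries were above all Normal ones, by 2.48-fold (log2 1.31, SE 0.15, adjusted p = 5.89e-06 in edgeR's test). Ly96 had few reads for its level, at most 530 counts in a treated library and as few as 162 in a Normal one, and the widest SE of all members. Lbp, whose serum protein extracts LPS from bacterial membranes and is made chiefly in liver, had 4 counts in ET replicate 3 and 0 in the other 8 libraries, so it was not tested. A count of 0 allows up to 3 counts in a library, or 0.0393 to 0.0545 CPM (the count scaled to library size), counting error only.

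**Figure D2:**
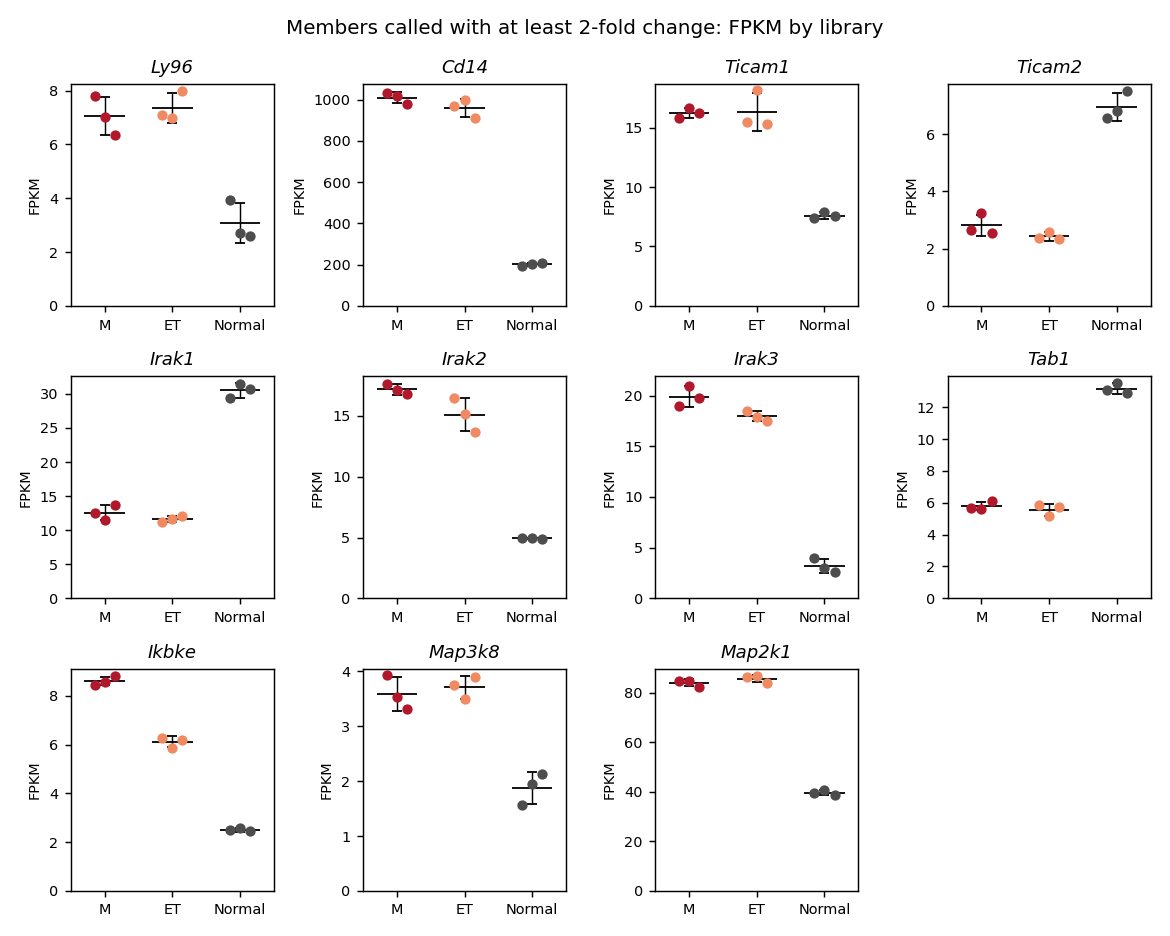
FPKM (y axis, from 0) of the 11 members called with at least 2-fold change, in each of 3 M, 3 ET and 3 Normal libraries; points are libraries, long bars group means and whiskers 1 SD. In all 11 panels the M and ET points lie on the same side of the Normal points without overlap, and only Ikbke separates M (8.47 to 8.803 FPKM) from ET (5.879 to 6.294 FPKM) by over 25% with a call.

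The adaptors changed unequally, and most on the TRIF side. Ticam1, which encodes TRIF, had 15.84, 16.64 and 16.23 FPKM in M and 15.46, 18.16 and 15.33 FPKM in ET, against 7.356, 7.921 and 7.523 FPKM in Normal. The treated libraries stood clear of the Normal ones, at 2.27-fold (log2 1.18, SE 0.06, adjusted p = 2.3e-09 in edgeR's test). Ticam2, which encodes TRAM, the bridge between TLR4 and TRIF, went the other way. It had 2.663, 3.227 and 2.543 FPKM in M and 2.359, 2.595 and 2.325 FPKM in ET, against 6.549, 6.819 and 7.503 FPKM in Normal. Every treated library lay below every Normal one, with a log2 change of -1.33 (SE 0.08, adjusted p = 6.01e-09 in edgeR's test), or 2.52-fold lower. Within a library, the ratio of Ticam1 to Ticam2 FPKM was 5.16 to 6.38 in M and 6.56 to 7.00 in ET, against 1.003 to 1.162 in Normal. This ratio and the others below were chosen after the values were seen, so they have no test. The exons of Ticam2 share 14.5% of their bases with Tmed7 on the same strand, a gene of 17.4 mean FPKM whose log2 change was 0.11, so reads there could be given to either.

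The pair that carries the MyD88 branch moved little. Tirap, the adaptor that brings MyD88 to the membrane, averaged 11.7 ± 0.753 FPKM in M, 12.1 ± 0.554 FPKM in ET and 9.35 ± 0.392 FPKM in Normal (SD, n = 3 each), a log2 change of 0.43 with no overlap between treated and Normal libraries. Myd88 averaged 53.9 ± 1.49 FPKM in M, 49.3 ± 1.42 FPKM in ET and 50.8 ± 1.79 FPKM in Normal. Its treated and Normal libraries overlapped. The Myd88 call of 0.10 (adjusted p = 0.0178 in edgeR's test) was lost in 5 of 17 alternative settings. Over all 17, its log2 change lay between 0.02 and 0.13. Among the 5 was the fit without Normal replicate 2, at 0.08 (adjusted p = 0.0952 in edgeR's test). The exons of Myd88 share 11.3% of their bases with Acaa1a on the opposite strand, which had a log2 change of -1.56. The strand setting of the counting is not stated, so reads of overlapping genes on opposite strands could not be assigned with certainty.

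The IRAK family showed the widest span of any step, from 6.24-fold higher to 2.38-fold lower. Irak3 encodes IRAK-M, a family member without kinase activity that limits signalling. It had 18.98, 20.99 and 19.72 FPKM in M and 18.48, 17.9 and 17.5 FPKM in ET, against 3.978, 2.998 and 2.636 FPKM in Normal. All treated libraries were far above all Normal ones (log2 2.64, SE 0.11, adjusted p = 1.84e-10 in edgeR's test), the largest change of the 32 tested members. Irak2, a kinase that joins the MyD88 complex, had 17.64, 17.13 and 16.78 FPKM in M and 16.44, 15.15 and 13.71 FPKM in ET, against 4.976, 4.94 and 4.898 FPKM in Normal. The treated libraries did not overlap the Normal ones, at 3.45-fold (log2 1.79, SE 0.06, adjusted p = 2.1e-11 in edgeR's test). Irak1, the other kinase recruited there, had 12.58, 11.48 and 13.66 FPKM in M and 11.22, 11.59 and 12.05 FPKM in ET, against 29.33, 31.44 and 30.76 FPKM in Normal. It was lower in every treated library than in any Normal one (log2 -1.252, SE 0.05, adjusted p = 9.2e-11 in edgeR's test). Irak4, which acts first in the complex, averaged 3.80 ± 0.288 FPKM in M, 3.65 ± 0.378 FPKM in ET and 5.04 ± 0.196 FPKM in Normal (SD, n = 3 each), a log2 change of -0.36 that was called with no overlap. Irak3 lies at chr10:120141648-120202130 and shares 5.22% of its exon bases with Tmbim4 on the opposite strand, which had a log2 change of 1.06, and Irak4 shares 7.87% with Twf1, which had one of 0.34.

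The make-up of the family by FPKM therefore differed between treated and Normal cells more than its sum. The summed FPKM of the 4 genes was 52.9 to 53.7 in M, 46.5 to 49.8 in ET and 43.2 to 44.6 in Normal. Irak1 held 21.4% to 25.4% of that sum in M and 22.5% to 25.9% in ET, against 67.9% to 71.1% in Normal. Irak3 held 35.9% to 39.1% in M and 36.8% to 37.6% in ET, against 6.10% to 9.21% in Normal. The share of Irak2 averaged 32.2% in M, 31.2% in ET and 11.3% in Normal. Irak1 was thus the leading IRAK transcript in each Normal library, and Irak3 in each treated library. These shares compare FPKM, which rest on 1 length per gene close to the sum of all its annotated exon bases, so a gene whose cells use a shorter transcript is set too low.

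**Figure D3:**
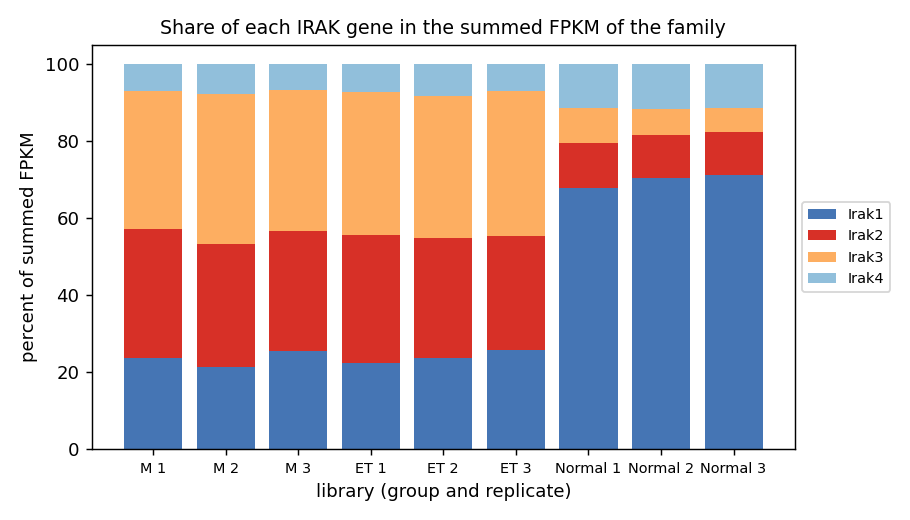
Share of each IRAK gene in the summed FPKM of the 4 genes (y axis, percent), for each of 3 M, 3 ET and 3 Normal libraries. Irak1 takes 21.4% to 25.9% in the treated libraries and 67.9% to 71.1% in the Normal ones, and Irak3 takes 35.9% to 39.1% in the treated libraries and 6.10% to 9.21% in the Normal ones.

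The promoter windows of Irak1 and Irak2 are shown because these related kinases changed in opposite directions. Each window holds 300 bases around the annotated transcript start, most of them upstream, from RefSeq on GRCm38.p6, written 5′ to 3′ on the gene's own strand with CG dinucleotides in capitals. That of Irak1 lies at chrX:74023869-74024168 on the minus strand and that of Irak2 at chr6:113638217-113638516 on the plus strand.
Irak1: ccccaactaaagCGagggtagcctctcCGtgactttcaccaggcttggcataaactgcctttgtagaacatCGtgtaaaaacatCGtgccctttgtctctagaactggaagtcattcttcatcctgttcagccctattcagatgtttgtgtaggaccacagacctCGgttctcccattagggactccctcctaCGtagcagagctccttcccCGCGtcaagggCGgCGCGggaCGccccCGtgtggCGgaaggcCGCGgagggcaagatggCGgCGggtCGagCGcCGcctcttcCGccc
Irak2: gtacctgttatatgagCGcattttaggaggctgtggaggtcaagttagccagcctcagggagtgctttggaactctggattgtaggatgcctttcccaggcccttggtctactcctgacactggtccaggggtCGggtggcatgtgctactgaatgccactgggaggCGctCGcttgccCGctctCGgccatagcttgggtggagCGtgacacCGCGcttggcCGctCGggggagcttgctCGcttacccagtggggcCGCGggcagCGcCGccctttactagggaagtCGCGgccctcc
The Irak1 window holds 22 CG dinucleotides and the Irak2 window 18, where the median of all 32851 windows is 7 and the upper quartile 20. Neither holds a match to the NF-kB consensus (4.51% of all windows do), to the interferon-stimulated response element core GAAANNGAAA (3.44%) or to the AP-1 site TGANTCA (7.81%), searched on both strands. The absence of these letters in these windows says nothing about the factors. Of the 24 members with a window in the RefSeq table, 2 matched the NF-kB consensus (Traf3 and Map3k7), 2 the interferon-stimulated response element core (Myd88 and 1 of the Mapk14 windows) and 2 the AP-1 site (Ikbkg and Ikbke). A match is a description of the sequence and not a binding site.

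The ubiquitin ligases that follow the adaptors changed little. Traf6, the ligase of the MyD88 branch, averaged 6.76 ± 0.551 FPKM in M, 6.36 ± 0.122 FPKM in ET and 7.46 ± 0.308 FPKM in Normal (SD, n = 3 each). Its log2 change over both treated groups was -0.10 and not called (adjusted p = 0.0936 in edgeR's test). It was called lower in 4 of 17 alternative settings. One was the fit without M replicate 1 (adjusted p = 0.0129 in edgeR's test), its highest treated library. Another was total counts as the only scaling (adjusted p = 0.00476 in edgeR's test). The others were limma on log2(FPKM + 1) and on log2(FPKM + 0.1). Traf3, the ligase of the TRIF branch, averaged 10.03 ± 0.170 FPKM in M, 10.4 ± 0.403 FPKM in ET and 12.1 ± 0.276 FPKM in Normal. Its log2 change of -0.16 was called, with all treated libraries below all Normal ones.

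In the TAK1 complex, 3 of 4 genes were lower in treated cells, where 36.8% of all tested genes were called lower, and none was higher. Tab1, which encodes an activating partner of the kinase, had 5.686, 5.611 and 6.084 FPKM in M and 5.845, 5.146 and 5.726 FPKM in ET, against 13.08, 13.53 and 12.9 FPKM in Normal. The treated libraries all lay below the Normal ones, at 2.19-fold lower (log2 -1.13, SE 0.06, adjusted p = 1.3e-09 in edgeR's test). Tab2, a partner that binds ubiquitin chains, averaged 18.5 ± 0.795 FPKM in M, 17.1 ± 0.972 FPKM in ET and 26.1 ± 0.142 FPKM in Normal (SD, n = 3 each), a log2 change of -0.47. Map3k7, the gene of TAK1 itself, changed by -0.19 and was called. Tab3, close in function to Tab2, averaged 2.44 ± 0.134 FPKM in M, 2.18 ± 0.309 FPKM in ET and 2.64 ± 0.0601 FPKM in Normal. Its log2 change of -0.11 was not called (adjusted p = 0.259 in edgeR's test), although all 6 treated libraries lay below the 3 Normal ones.

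The IKK complex, which releases NF-kB from its inhibitor, stayed within 1.14-fold. Ikbkb and Chuk, which encode the kinases IKK-beta and IKK-alpha, had log2 changes of 0.16 and 0.19. Both were called higher, where 36.8% of all tested genes were, and both overlapped between treated and Normal libraries. Neither was called with total counts as the only scaling (adjusted p = 0.143 for Ikbkb and 0.113 for Chuk in edgeR's test). Ikbkb averaged 4.22 ± 0.172 FPKM in M, 4.24 ± 0.153 FPKM in ET and 4.01 ± 0.216 FPKM in Normal, and Chuk averaged 16.8 ± 0.421 FPKM in M, 15.3 ± 1.61 FPKM in ET and 14.9 ± 0.454 FPKM in Normal (SD, n = 3 each). Ikbkg, the gene of the regulatory subunit NEMO, changed by 0.02 (adjusted p = 0.756 in edgeR's test). Its exons share 5.15% of their bases with G6pdx on the opposite strand, a gene of 129.9 mean FPKM against 4.81 for Ikbkg.

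On the TRIF branch, both kinases of interferon regulatory factors were higher in treated cells, where 36.8% of all tested genes were called higher. Ikbke changed by far the more. Ikbke, the gene of IKK-epsilon, had 8.47, 8.566 and 8.803 FPKM in M and 6.294, 5.879 and 6.197 FPKM in ET, against 2.493, 2.583 and 2.44 FPKM in Normal. The 3 groups did not overlap, with M highest and Normal lowest. Treated cells were 3.06-fold above Normal cells (log2 1.61, SE 0.045, adjusted p = 5.05e-12 in edgeR's test). Tbk1, its close relative, averaged 22.8 ± 0.731 FPKM in M, 21.6 ± 0.562 FPKM in ET and 18.1 ± 0.150 FPKM in Normal (SD, n = 3 each), a called log2 change of 0.38 with no overlap. The ratio of Ikbke to Tbk1 FPKM within a library was 0.367 to 0.385 in M and 0.271 to 0.300 in ET, against 0.136 to 0.142 in Normal. By FPKM, Tbk1 thus stayed the more abundant of the pair in all 9 libraries.

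The promoter window of Ikbke is shown because this gene alone among the members separated M from ET by over 25%. It lies at chr1:131279514-131279813 on the minus strand (RefSeq, GRCm38.p6), with CG dinucleotides in capitals.
Ikbke: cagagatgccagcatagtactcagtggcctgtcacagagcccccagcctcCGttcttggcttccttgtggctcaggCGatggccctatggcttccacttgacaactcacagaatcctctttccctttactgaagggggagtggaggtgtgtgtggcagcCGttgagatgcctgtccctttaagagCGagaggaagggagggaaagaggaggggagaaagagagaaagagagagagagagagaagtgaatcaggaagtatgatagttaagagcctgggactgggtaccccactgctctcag
It holds 4 CG dinucleotides, where the lower quartile of all windows is 3 and the median 7. It has 1 AP-1 match, TGAATCA, that begins 6 bases before the annotated start, and no match to the NF-kB consensus or to GAAANNGAAA.

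The members of the MAP kinase cascade were higher at the upper tiers, and at the lower tier they changed less or were lower. Of these 9 members, 5 were called higher and 2 lower, where 36.8% of all tested genes were called in each direction. Other upper-tier genes, outside the member list, were mixed. Map3k1, Map3k5 and Map2k7 were called lower in treated cells, with log2 changes of -0.705, -0.926 and -0.273. Map3k14 and Map2k2 were called higher, by 0.215 and 0.233, and Map3k3 was not called. Map2k1, which encodes MEK1, the kinase of ERK1, had 84.77, 84.87 and 82.25 FPKM in M and 86.43, 86.71 and 83.87 FPKM in ET, against 39.66, 40.75 and 38.54 FPKM in Normal. All treated libraries were above all Normal ones, at 2.26-fold (log2 1.18, SE 0.03, adjusted p = 3.25e-12 in edgeR's test). Map3k8, the gene of TPL2, which activates MEK1 once released from NF-kB p105, had 3.933, 3.528 and 3.309 FPKM in M and 3.752, 3.489 and 3.891 FPKM in ET, against 1.561, 1.954 and 2.131 FPKM in Normal. The groups of treated and Normal libraries did not overlap, at 2.05-fold (log2 1.04, SE 0.11, adjusted p = 1.63e-06 in edgeR's test). Mapk3, the gene of ERK1, averaged 38.3 ± 2.17 FPKM in M, 40.9 ± 0.290 FPKM in ET and 35.0 ± 1.38 FPKM in Normal (SD, n = 3 each), a log2 change of 0.26.

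Among the members of the p38 arm, the kinase above and the kinases below changed in opposite directions. Map2k3, which encodes MKK3, an activator of p38, averaged 52.8 ± 1.48 FPKM in M, 51.6 ± 1.17 FPKM in ET and 28.1 ± 0.807 FPKM in Normal (SD, n = 3 each). Its change of 1.97-fold (adjusted p = 4.51e-11 in edgeR's test) fell just short of the 2-fold mark. Mapk14, the gene of p38-alpha, averaged 26.4 ± 1.20 FPKM in M, 29.3 ± 1.30 FPKM in ET and 41.3 ± 1.36 FPKM in Normal, a log2 change of -0.49. Mapkapk2, the gene of MK2, the p38 target that stabilises cytokine mRNAs, averaged 238.3 ± 4.89 FPKM in M, 224.1 ± 11.3 FPKM in ET and 292.6 ± 5.56 FPKM in Normal, a log2 change of -0.26. Both were lower in every treated library than in any Normal one. Outside the member list this pattern did not hold. Mapk11, another p38 gene, was higher by 0.81 on the log2 scale (adjusted p = 3.9e-05 in edgeR's test). Map2k6, the gene of another p38 activator, was too low to be tested. It averaged 0.0757 FPKM in M, 0.0983 FPKM in ET and 0.503 FPKM in Normal. In the JNK arm, Map2k4, the gene of the JNK activator MKK4, was higher by 0.38 on the log2 scale, while Mapk8 and Mapk9, the genes of JNK1 and JNK2, had changes of -0.04 and -0.05 that were not called (adjusted p = 0.659 and 0.309 in edgeR's test).

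**Figure D4:**
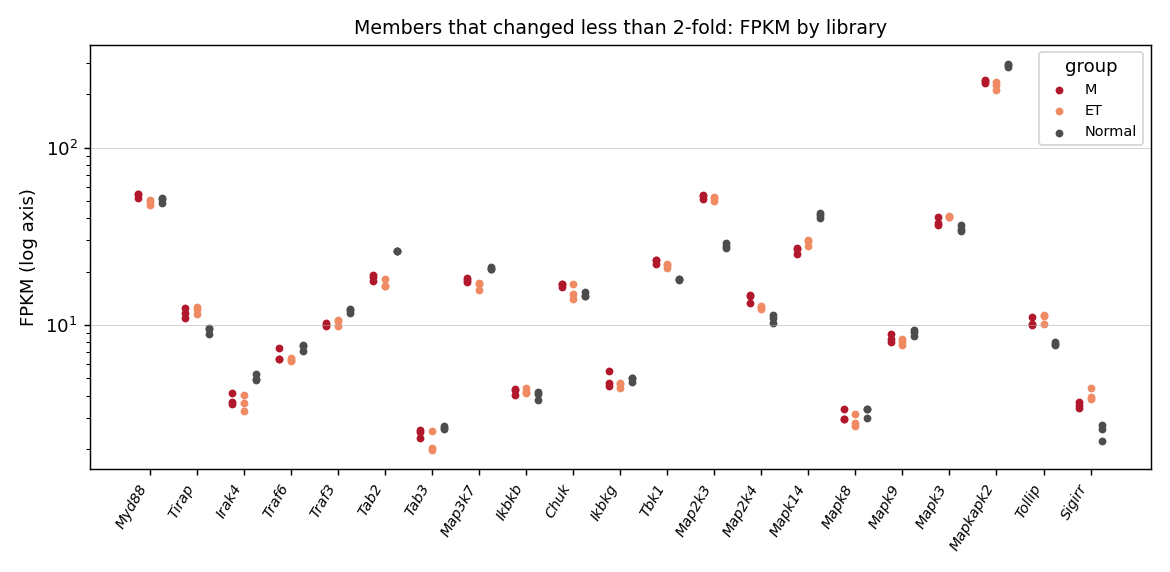
FPKM (y axis, log scale) of the 21 tested members that changed less than 2-fold between treated and Normal libraries; each point is 1 library of the M, ET or Normal group. Map2k3 is higher in the treated groups (means of 52.8 FPKM in M and 51.6 in ET, 28.1 in Normal) and Mapk14 lower (26.4 in M and 29.3 in ET, 41.3 in Normal), while Myd88, Ikbkb, Chuk, Ikbkg, Mapk8, Mapk9 and Traf6 overlap.

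The genes of 2 inhibitors were modestly higher in treated cells, where 36.8% of all tested genes were called higher. Tollip, whose protein holds IRAK1 inactive, averaged 10.4 ± 0.611 FPKM in M, 10.9 ± 0.692 FPKM in ET and 7.87 ± 0.166 FPKM in Normal (SD, n = 3 each), a log2 change of 0.52. Sigirr, a receptor relative that dampens Toll-like and interleukin-1 receptors, averaged 3.53 ± 0.145 FPKM in M, 4.06 ± 0.304 FPKM in ET and 2.51 ± 0.270 FPKM in Normal, a log2 change of 0.67. Both were called with no overlap between treated and Normal libraries (adjusted p = 1.55e-06 and 3.4e-05 in edgeR's test).

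Few members were called between M and ET, and few of all tested genes were. This difference is LPS with extract over LPS alone by the column names and the reverse by the library names. Of the 32 members tested, 3 were higher in M, where 4.97% of all tested genes were called higher, and 0 were lower, where 4.12% of all tested genes were called lower. With a change of at least 25% on top of the call, Ikbke alone was higher (2.15% of all tested genes) and 0 members were lower (1.53% of all tested genes). The median log2 change of the 32 was 0.09 and its median size 0.10, against 0.00 and 0.10 over all tested genes. Mapk14, the gene of p38-alpha, had a log2 difference of -0.14 that was not called (adjusted p = 0.0821 in edgeR's test). DESeq2 called 4 members higher in M and 1 lower, Mapk14.

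Ikbke was 1.42-fold higher in M than in ET (log2 0.50, SE 0.05, adjusted p = 5.29e-05 in edgeR's test), and its 3 M libraries all lay above its 3 ET libraries. The difference lay between 0.433 and 0.515 in 18 alternative settings and was called in each. Without ET replicate 3 it was 0.51 (adjusted p = 0.000138 in edgeR's test). The other calls were near the threshold. Myd88 differed by 0.14 (adjusted p = 0.0493 in edgeR's test), a call lost in 17 of 18 alternative settings, and Map2k4 by 0.19 (adjusted p = 0.0457 in edgeR's test), lost in 14 of 18. Without ET replicate 3, Myd88 differed by 0.11 (adjusted p = 0.0965 in edgeR's test) and Map2k4 by 0.19 (adjusted p = 0.0532 in edgeR's test). Irak2 differed by 0.20 and was not called (adjusted p = 0.0635 in edgeR's test), although its M libraries, at 16.78 to 17.64 FPKM, all lay above its ET libraries, at 13.71 to 16.44 FPKM. In the fit without ET replicate 3, 5 of the 32 members were called higher in M. These were Ikbke and, by 0.17, 0.30, 0.14 and 0.23 on the log2 scale, Tab2, Tab3, Map3k7 and Chuk. Over all 11536 tested genes, that fit called 1828 in either direction, against 1048 with all libraries.

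The members that differed most between treated and Normal cells showed no call between M and ET, apart from Ikbke. Cd14 differed by 0.085 (SE 0.036, adjusted p = 0.168 in edgeR's test), Irak3 by 0.158 (SE 0.105, adjusted p = 0.384), Irak1 by 0.125 (SE 0.058, adjusted p = 0.202) and Ticam1 by 0.00 (SE 0.07, adjusted p = 0.978). Ly96 and Map3k8 had the widest errors, with differences of -0.05 (SE 0.16) and -0.04 (SE 0.12). Over all 32 members the SE of this difference lay between 0.035 and 0.164 on the log2 scale, and a missed threshold at that precision does not show that the groups were equal.

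**Figure D5:**
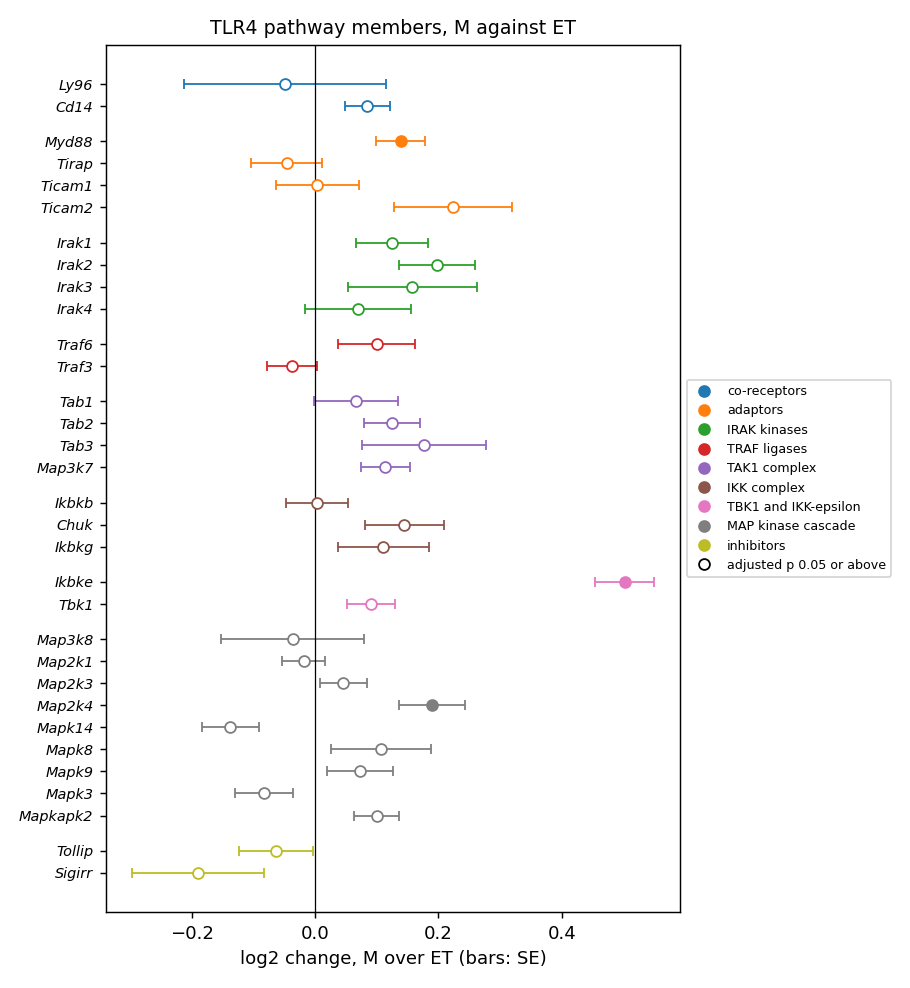
Log2 change of each tested member (x axis), M over ET, with bars of 1 SE from the edgeR fit, grouped and coloured by step of the pathway; open circles mark members with adjusted p of 0.05 or above. Ikbke stands at 0.50, and the other 31 members lie between -0.19 (Sigirr) and 0.22 (Ticam2).

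The rest of the pathway was described by 42 further genes, of which 34 were tested. In treated cells, 17 of the 34 were higher, 11 lower and 6 not called, where 36.8% of all tested genes were called in each direction. Their median log2 change was 0.11. Of the 34, only Pik3ap1 was at least 2-fold higher (10.6% of all tested genes) and only Rps6ka5 at least 2-fold lower (5.07% of all tested genes). Genes too low to be tested, such as Map2k6 and Mapk13, are not in this count. Tlr4 itself averaged 7.21 ± 0.272 FPKM in M, 6.75 ± 0.851 FPKM in ET and 6.49 ± 0.143 FPKM in Normal (SD, n = 3 each), and its log2 change of 0.19 was called (adjusted p = 0.0297 in edgeR's test) with overlapping libraries. Its change stands beside 1.31 for Ly96 and 2.37 for Cd14, whose products work with it. Pik3ap1, whose product BCAP links Toll-like receptors to PI3-kinase, averaged 65.5 ± 2.18 FPKM in M, 67.7 ± 2.06 FPKM in ET and 20.0 ± 0.483 FPKM in Normal, a log2 change of 1.82 (adjusted p = 1.85e-13 in edgeR's test). Rps6ka5, the gene of MSK1, a kinase of CREB and histone H3 below the MAP kinases, averaged 0.475 ± 0.0961 FPKM in M, 0.514 ± 0.0323 FPKM in ET and 1.67 ± 0.108 FPKM in Normal, a log2 change of -1.67 (adjusted p = 2.24e-08 in edgeR's test).

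Around IKK-epsilon, the 3 genes of the TBK1 adaptors were called higher in treated cells, where 36.8% of all tested genes were, Tank by 0.84, Tbkbp1 by 0.80 and Azi2 by 0.30 on the log2 scale. Between M and ET, 4 of the 34 were higher in M (4.97% of all tested genes) and 2 lower (4.12% of all tested genes). Hsp90b1, the chaperone gp96 that folds Toll-like receptors, was higher in M by 0.42 (adjusted p = 0.00172 in edgeR's test). Birc3, a ubiquitin ligase gene, was higher by 0.38 (adjusted p = 0.00248), Nfkb1, the gene of the p105 partner of TPL2, by 0.30 (adjusted p = 0.000226) and Map3k1 by 0.19 (adjusted p = 0.0443). Tbkbp1 was lower in M by a log2 change of -0.29 (adjusted p = 0.0111) and Map3k3 by -0.17 (adjusted p = 0.0315). The alternative settings were followed gene by gene for members only. Whether these calls outside the member list hold in them was not tested. Within the TBK1 group, Ikbke was thus higher in M and Tbkbp1 lower, while Tbk1 was not called at 0.09 (adjusted p = 0.162 in edgeR's test).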

How the data were processed

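The table deposited by the authors holds whole-number counts and, per the file headers, FPKM for each gene and library. Per the submitters' processing notes, cutadapt 1.9, HISAT2 2.2.1, StringTie 2.1.6, DESeq2 and edgeR were used. The build and the strand setting of the counting are not given in the sources used here. Gene starts and ends equalled GENCODE M21 on GRCm38 for 23547 of 26146 genes and for 29 of the 33 members. Reads of overlapping genes could not be assigned with certainty. Each sample took the columns that its label names. The members and lists were chosen with earlier results of these data known.

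The tests took the deposited counts of the 11536 genes that reached 1 FPKM in 3 or more of the 9 libraries, with TMM factors, 1 fit of 3 groups, edgeR 4.0.16's quasi-likelihood test and Benjamini-Hochberg adjustment at 0.05 (R 4.3.3). FPKM are levels as deposited; log2 changes come from the fit. The values of each library are given for members called with at least 2-fold change in treated against Normal, or by at least 25% in M against ET, and group means or counts for the rest. Alternatives were DESeq2 1.42.0, limma 3.58.1 on log2(FPKM + 1) and log2(FPKM + 0.1), other scaling and filters, a replicate block, fits of the compared groups only, and each library left out. The fit was tested on simulated data.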

Additional observations from a re-analysis of the deposited data

How the results depend on the processing

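Against Normal, counts of called members stayed within 1.5 times in every setting, and no called member turned its direction in any comparison. Limma and scaling by total counts alone gave 15 members higher and 11 lower in treated cells, where edgeR with TMM gave 18 and 9, and total counts alone moved the median of all genes to -0.10. Between M and ET, 3 members were higher in M. This became 1, Ikbke, with limma on log2(FPKM + 1) or log2(FPKM + 0.1), relative log expression factors, total counts alone, no filter, filterByExpr, or only the groups compared. Leaving out each library gave 1 to 5, with 5 without ET replicate 3. DESeq2 called 1 member lower in M, Mapk14 (adjusted p = 0.029), against 0 by edgeR. The cause was not tested. Over all genes, M against ET gave 1048 calls, 1682 by DESeq2, 615 with no filter, and 536 to 1828 with a library left out, the most without ET replicate 3. With the replicate block, 18 members were higher and 9 lower in treated cells, and 2 higher in M. Deviations of same-numbered libraries correlated at -0.05 to 0.08, and those of differently numbered libraries at -0.083 to 0.086. For M against ET alone, same-numbered libraries correlated at 0.031 to 0.076 and differently numbered ones at -0.057 to 0.023. These values are small and do not show whether the libraries were prepared in pairs. Irak2 was called higher in M by DESeq2 (adjusted p = 0.0383), with the replicate block (adjusted p = 0.0482) and without ET replicate 1 (adjusted p = 0.03). Ly96, with 162 to 530 counts per library, was the least precise member.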

Other observations

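Members that neighbour each other on a chromosome did not all change the same way. Ikbke and Mapkapk2 lie 157 kb apart on chromosome 1, and in treated cells Ikbke was 3.06-fold higher while Mapkapk2 was lower, with a log2 change of -0.26. Irak1 and Ikbkg lie 369 kb apart on chromosome X, with changes of -1.252 and 0.023. Tollip and Sigirr lie 774 kb apart on chromosome 7, and both were higher, by 0.52 and 0.67. The receptor chaperones and relatives moved apart too. Ly86, the gene of MD-1, which is related to MD-2, had a log2 change of -0.94, and its partner Cd180, a TLR4 relative, one of -0.26, where Ly96 was higher by 1.31. Ly86 averaged 16.9 ± 0.451 FPKM in M, 16.6 ± 0.740 FPKM in ET and 34.1 ± 1.08 FPKM in Normal (SD, n = 3 each). Cnpy3, a chaperone gene for Toll-like receptors, was lower by a log2 change of -0.77. Irf3, the gene of the factor that TBK1 and IKK-epsilon act on, averaged 7.97 ± 0.335 FPKM in M, 7.19 ± 0.223 FPKM in ET and 11.2 ± 0.875 FPKM in Normal, a log2 change of -0.48 (adjusted p = 7.63e-06 in edgeR's test). These genes were named after their values were seen.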
